A study of Caenorhabditis elegans with 2 samples.

Results

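Peaks of tagged SEM-4 that lie in the piRNA clusters of Caenorhabditis elegans chromosome IV numbered 1609, of 30000 peaks in the authors' pooled relaxed list and of 4865 on that chromosome. A peak was taken as a member by position alone: its summit, the point of highest signal, had to lie from 4500000 to 7000000 (the left cluster, 745 peaks) or from 13500000 to 17200000 (the right cluster, 864 peaks) on assembly ce11. The other 3256 peaks of chromosome IV form the rest of the chromosome below. The data come from chromatin immunoprecipitation and sequencing (ChIP-seq) of eGFP-sem-4 in whole worms at the L2 larval stage, with males and females pooled and sem-4 listed as the antibody. All samples form 1 group of 2 biological replicates. The worms were of strain OP57, which carries unc-119(ed3) III and wgIs57, an insertion targeting sem-4, and the labels name neither the promoter that drives the insertion nor the cells that express it. Nothing in the labels says that the replicates were grown apart, so their spread may be partly technical. Both replicates carry the same tag and allele, there was no second genotype or stage, and no test between conditions was possible. Because whole animals were used, strong binding in few cells and weak binding in many cannot be told apart.

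piRNAs, called 21U-RNAs in this species because they begin with U and share their length, are made in the germ line and guide the Argonaute PRG-1 to silence transposons and other foreign transcripts. Unlike the long cluster transcripts of flies and mice, each 21U-RNA gene is a tiny transcription unit of its own, and many carry a short upstream element, CTGTTTCA, bound by a complex with PRDE-1 and SNPC-4. SEM-4 belongs to the Spalt group of zinc-finger transcription factors and is known for its roles in neurons, muscle and the vulva rather than for piRNA transcription. The annotation fits the name of the clusters. They hold 14204 of the 14714 piRNA genes annotated on chromosome IV (96.5%), of which 2816 lie in the left cluster and 11388 in the right, against 510 in the rest of the chromosome. All annotated piRNA genes have 21 bases. CTGTTTCA lies in the 60 bases before 4944 of the cluster genes (34.8%), and its first base is at a median of 46 bases upstream of the start.

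The sequences below show what lies under the strongest peaks of each cluster and under the few that come close to a piRNA gene. They are 101-base windows centred on the summit, read from the plus strand of WBcel235, the reference genome that matches ce11. Capitals mark CTGTTTCA and TTGTCT or TTGTGT, a site described for SEM-4, each searched on both strands, so that AGACAA is TTGTCT read from the other strand. The first 4 are the strongest reproducible peak of each cluster and the strongest of each cluster outside promoter windows. The fifth is the only reproducible cluster window with CTGTTTCA, and the sixth is the only one whose summit lies inside a piRNA gene. The last is not reproducible: it is the strongest relaxed peak with a piRNA gene and its CTGTTTCA in the window, shown as the arrangement of a 21U-RNA gene that carries the element.
chrIV:4750027-4750127, upstream of Y17G9B.5 and rpl-20: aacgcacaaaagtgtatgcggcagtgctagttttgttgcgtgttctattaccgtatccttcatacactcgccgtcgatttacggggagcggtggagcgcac
chrIV:5754136-5754236, intron of nhr-46: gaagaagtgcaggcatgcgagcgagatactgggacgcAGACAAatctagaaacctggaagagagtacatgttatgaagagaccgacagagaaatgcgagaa
chrIV:15471574-15471674, upstream of ntl-11: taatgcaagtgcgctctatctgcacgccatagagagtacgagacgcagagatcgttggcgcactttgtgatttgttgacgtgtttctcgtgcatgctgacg
chrIV:14838301-14838401, intron of Y57G11C.22: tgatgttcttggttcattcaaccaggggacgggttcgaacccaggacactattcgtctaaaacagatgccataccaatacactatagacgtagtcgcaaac
chrIV:5591306-5591406, intron of fkh-7: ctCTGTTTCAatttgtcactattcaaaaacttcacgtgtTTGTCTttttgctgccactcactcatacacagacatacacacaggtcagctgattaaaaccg
chrIV:16180988-16181088, over 21ur-13200: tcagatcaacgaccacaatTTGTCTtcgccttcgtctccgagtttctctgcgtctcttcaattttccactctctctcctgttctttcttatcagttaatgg
chrIV:14482038-14482138, over 21ur-1096: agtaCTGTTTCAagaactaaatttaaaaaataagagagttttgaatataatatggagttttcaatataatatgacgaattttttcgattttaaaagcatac

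The piRNA genes under the last pair of windows are given here from their own strand, with the first base of each, the U of the 21U-RNA, in capitals.
21ur-13200, chrIV:16181035-16181055, minus strand: Tggaaaattgaagagacgcag
21ur-1096, chrIV:14482088-14482108, plus strand: Tatggagttttcaatataata
The reproducible summit at 16181038 lay 17 bp inside 21ur-13200, whose 60 upstream bases do not hold CTGTTTCA. The relaxed summit at 14482088 fell on the first base of 21ur-1096, which has CTGTTTCA 46 bases upstream.

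Relaxed peaks were somewhat less dense in the clusters than in the rest of the chromosome, at a ratio of 0.90 in the pooled list. The ratio was 0.927 in replicate 1 alone, 0.78 in replicate 2 alone and 0.745 for pooled peaks found in both. Reproducible peaks were sparser in the right cluster, while their density in the left cluster was within the range of the other stretches of chromosome IV. A relaxed peak is one of the 30000 passed by the authors to their reproducibility step, and a reproducible peak is one of the 2490 in the list that came out of it, which were also the 2490 of highest pooled signal. Reproducible peaks made up 96 of the 1609 cluster peaks, or 5.97% (95% exact Clopper-Pearson interval 4.86 to 7.24), against 266 of 3256 in the rest of chromosome IV, or 8.17% (7.25 to 9.16), and 8.3% of all 30000. The intervals cover counting error only. The left cluster held 52 (6.98%) and the right cluster 44 (5.09%). The clusters are thus somewhat below the share found over the genome, and the left cluster is nearer to it. The difference was small when replicate 2 stood alone. Among the 2490 strongest peaks of each replicate's own relaxed list, 5.67% of cluster peaks against 8.47% in the rest of the chromosome were counted for replicate 1, and 7.32% against 7.96% for replicate 2. In replicate 1 the left cluster (7.3%) and the right cluster (4.31%) were both below the rest of the chromosome. In replicate 2 the left cluster (9.01%) was above it and only the right cluster (5.73%) below.

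Per unit of length, the pooled relaxed list had 298 summits per Mb in the left cluster and 234 in the right, against 266 left of the clusters, 305 between them and 248 in the short stretch to their right. Reproducible summits numbered 20.8 per Mb in the left cluster and 11.9 in the right, against 17.6, 28.0 and 17.0 in those stretches. The right cluster was the lowest of the 5 stretches in both lists and in each replicate alone, with 10.5 strongest summits per Mb in replicate 1 and 11.1 in replicate 2. It also has the fewest protein-coding genes, 124 per Mb, against 193 in the left cluster and 234 between the clusters. The same fractions of the length of the other autosomes, which hold few piRNA genes, gave 27.1 reproducible summits per Mb where the left cluster would lie and 19.3 where the right cluster would lie. A lower density on the right arm was therefore also seen on chromosomes without piRNA clusters. Each cluster was nevertheless below its matched stretch, at 20.8 against 27.1 and 11.9 against 19.3. Those stretches hold 229 and 185 protein-coding genes per Mb, against 193 and 124 in the clusters. How far gene density accounts for the densities on chromosome IV was not tested.

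**Figure D1:**
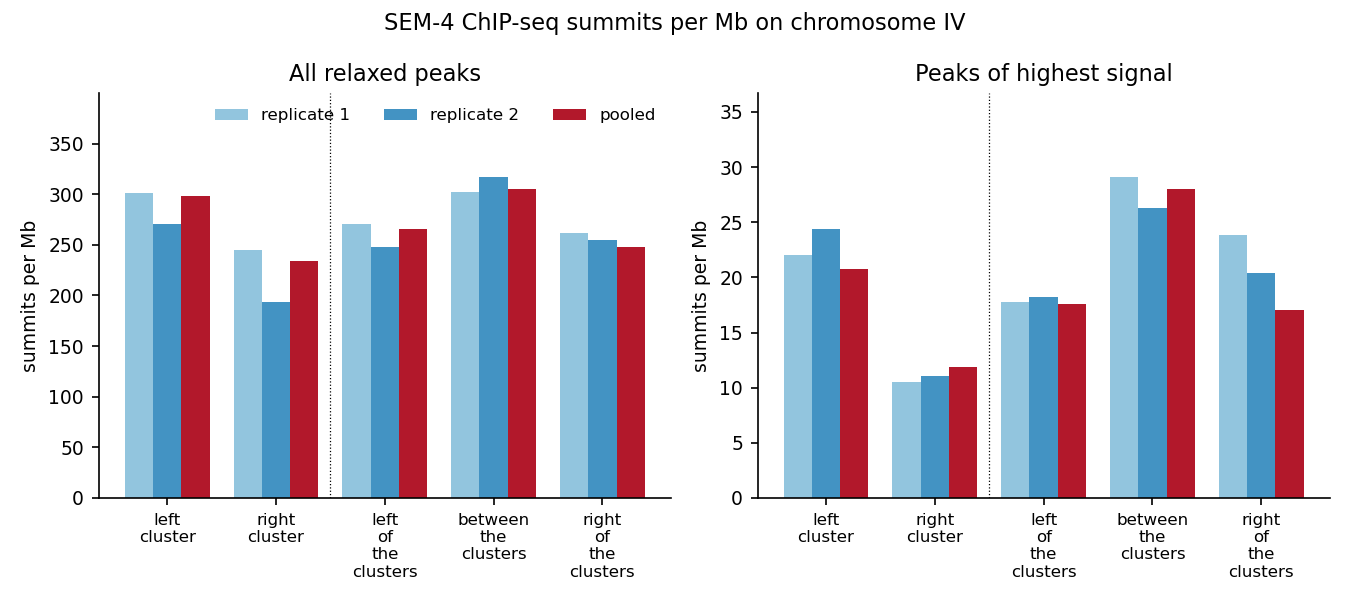
Summits per Mb in the 5 stretches of chromosome IV, with the clusters left of the dotted line. The left panel gives all relaxed peaks and the right panel the reproducible list (pooled) or the 2490 peaks of highest signal of each replicate's own list. The right cluster is lowest in both panels, with 234 pooled relaxed and 11.9 reproducible summits per Mb.

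Taken over both clusters or the whole chromosome, the number of piRNA genes in a stretch of 500 kb did not go with more peaks. Across the 12 bins wholly inside a cluster, which hold 227 to 1915 piRNA genes each, Spearman's rho between piRNA genes and peaks was -0.287 for relaxed and -0.450 for reproducible peaks. Across all 34 full bins of the chromosome the values were -0.197 and -0.227. These describe neighbouring bins of 1 chromosome, which share libraries and base composition, so no p is given. Inside the clusters, every left bin holds fewer piRNA genes (at most 978) than any right bin (at least 1116). The values there thus mix the difference between the clusters with any trend within a cluster, which was not computed. The left bin with 978 piRNA genes held the most peaks of the 12, with 229 relaxed and 17 reproducible. Reproducible peaks per bin ran from 4 to 17 (median 7) inside the clusters and from 5 to 23 (median 10) elsewhere.

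At the scale of single piRNA genes, relaxed summits lay near 21U-RNA starts about as often as the bases of the clusters at large or, at 250 bp in the right cluster, somewhat more often, whereas reproducible summits seldom did. Within 100 bp of a start were 1 of 52 reproducible summits of the left cluster (1.92%), 111 of the 693 other relaxed summits (16%) and 17.0% of all bases there. In the right cluster, which is denser in piRNA genes, the counts were 2 of 44 (4.55%) and 340 of 820 (41.5%), against 38.5% of bases. At this distance the other relaxed summits stayed within about 3 percentage points of the bases in either cluster, and the reproducible ones were far below. Within 250 bp the reproducible shares were 17.3% on the left and 20.5% on the right, against 34.5% and 67.1% of the other relaxed summits and 33.7% and 61.2% of bases. The median distance to the nearest start was 956 bp for reproducible summits and 464 bp for the others in the left cluster, and 1182.5 bp and 130.5 bp in the right cluster. In the rest of chromosome IV, where starts are rare, 0.752% of reproducible and 0.903% of other relaxed summits lay within 100 bp of one, against 0.801% of bases.

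**Figure D2:**
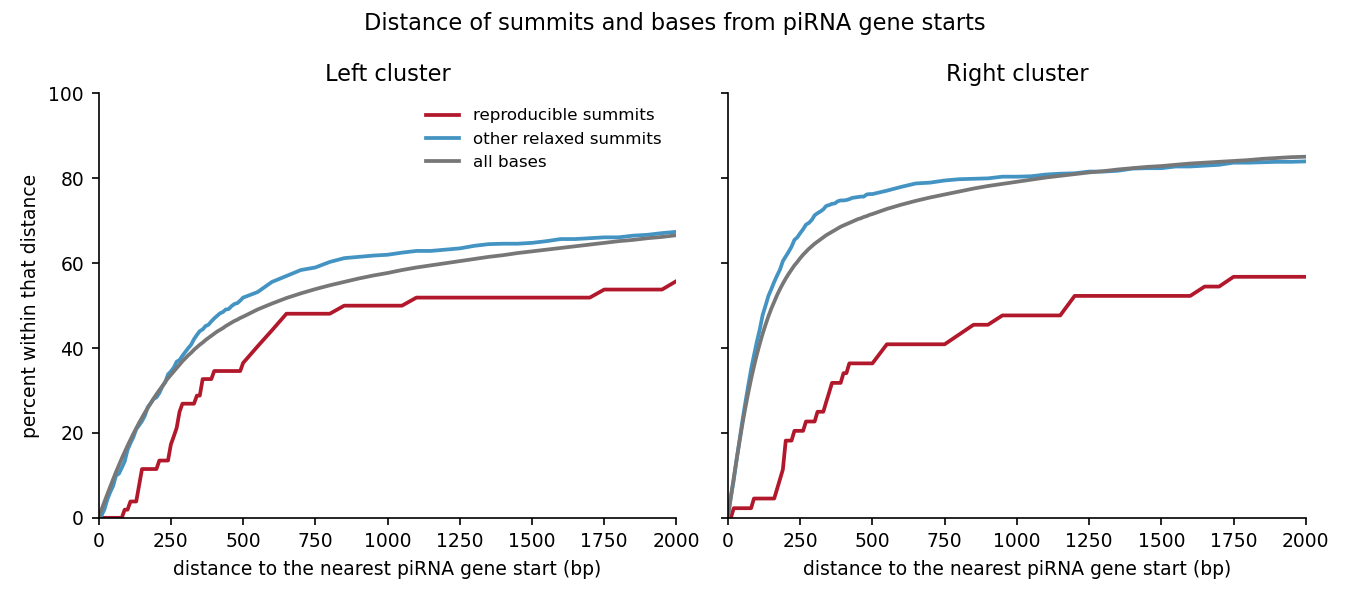
Percent of summits or bases within a given distance (bp) of the nearest piRNA gene start, for the left and the right cluster. The curve of the other relaxed summits lies close to that of all bases or somewhat above it, and the curve of the reproducible summits runs below both, at 17.3% (left) and 20.5% (right) within 250 bp.

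Within 250 bp the gap was not confined to peaks at protein-coding promoters, but in the left cluster it did not extend to longer distances outside them. Outside promoter windows, which run from 1000 bp upstream to 200 bp downstream of a protein-coding transcript start, 9 of 27 reproducible summits of the right cluster (33.3%) lay within 250 bp of a piRNA start, against 72.6% of the other relaxed summits and 64.0% of bases. In the left cluster the shares outside windows were 6 of 29 (20.7%), 39.8% and 36.0%. Over all cluster summits, each replicate alone gave like values. Of the 94 cluster peaks among the strongest of replicate 1, 4 (4.26%) lay within 100 bp and 15 (16%) within 250 bp of a start, and of the 102 of replicate 2, 3 (2.94%) and 18 (17.6%) did.

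Set around the starts and read on the strand of each piRNA gene, the reproducible summits left a deep gap. The others showed a shallower dip, in the left cluster only. In both clusters together there were 4 pairs of a reproducible summit and a piRNA gene within 100 bp, a mean of 1 per 50-bp bin, against 8.45 per bin from 500 to 1000 bp on either side. For the other relaxed summits the means were 178 and 191. By cluster they were 35.5 and 48.6 on the left, and 143 and 142 on the right. The lowest reproducible bin held 0 pairs, in the 50 bp just upstream of the start where the upstream element lies. The highest held 23 pairs, from 550 to 500 bp upstream, but only 8 different summits, since 1 summit can pair with several neighbouring piRNA genes.

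**Figure D3:**
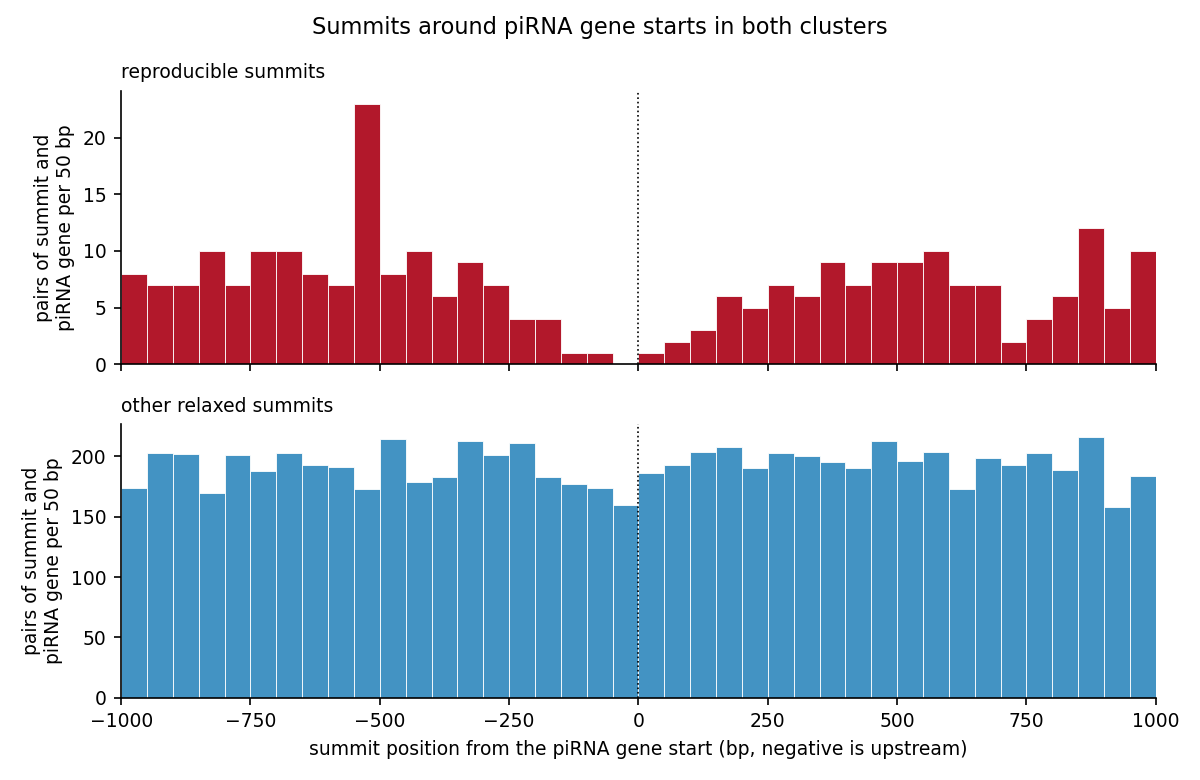
Pairs of a summit and a piRNA gene by the position of the summit from the gene's start (bp, read on the gene's strand, 50-bp bins, both clusters). Reproducible summits (top) are few within about 150 bp of the start, with 0 in the bin just upstream, while other relaxed summits (bottom) stay between 158 and 216 pairs per bin.

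The share near piRNA starts hardly changed down to pooled rank 5000 and rose below it. Among cluster peaks, 18.8% of the reproducible ones lay within 250 bp of a piRNA start, 20.2% of the 99 peaks at pooled ranks 2491 to 5000, 40.8% of the 206 at ranks 5001 to 10000, 51.1% of the 546 at ranks 10001 to 20000 and 61.3% of the 662 below. Of all cluster bases, 50.1% lay within that distance. These classes pool both clusters. The right cluster has the lower median signal (10.9 against 12.9) and more bases within 250 bp of a start (61.2% against 33.7%). The part of the mix of clusters in the rise was not tested. Base composition also moved with the ranking. The mean AT content of the summit window was 54.8%, 57.0%, 62.3%, 67.6% and 69.2% in the same order, and the 101 bases around piRNA starts of the clusters have a mean AT content of 71.6%. Over all windows of the clusters the mean was 67.0% (SD 8.72).

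**Figure D4:**
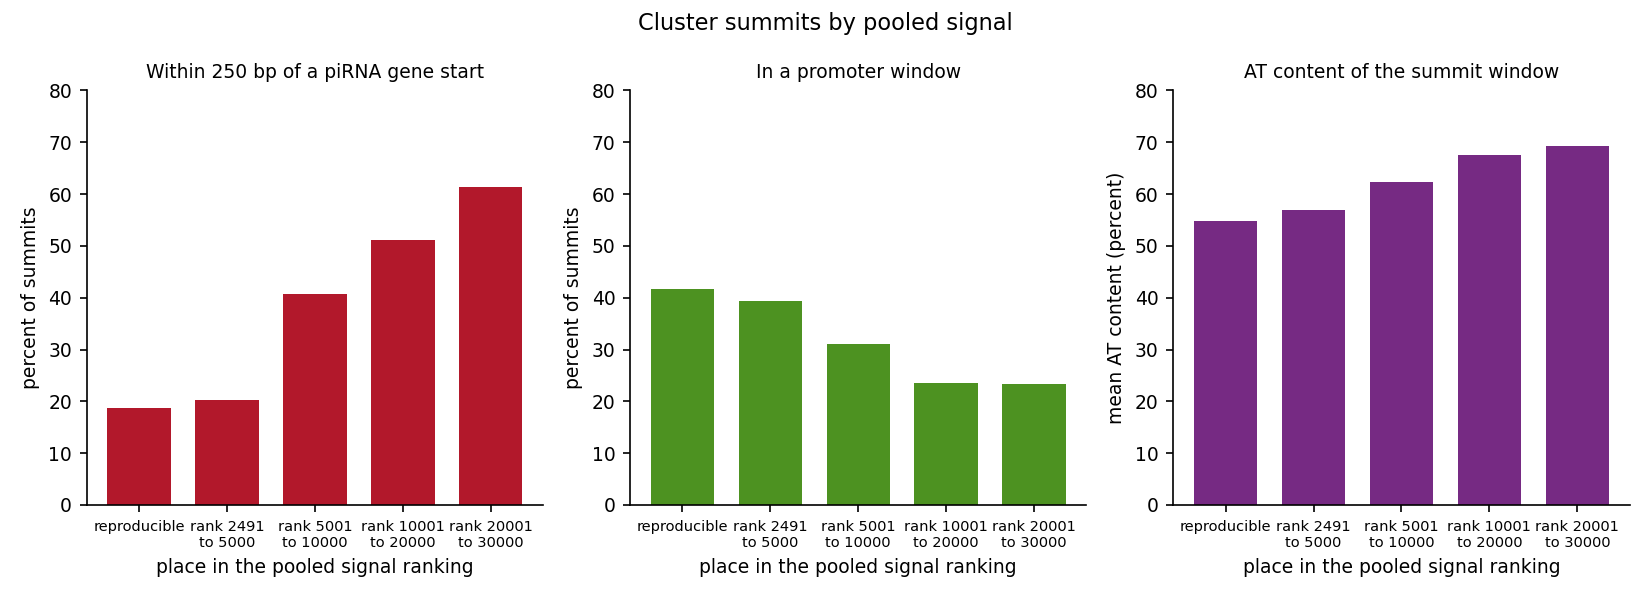
Cluster summits in 5 classes of pooled signal, from the 96 reproducible peaks to the 662 at ranks 20001 to 30000: percent within 250 bp of a piRNA gene start, percent in a promoter window, and mean AT percent of the 101-bp window. Going down the ranking, piRNA proximity climbs to 61.3%, the promoter share drops to 23.3% and AT content climbs to 69.2%. Both clusters are pooled, and 50.1% of their bases lie within 250 bp of a start.

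Reproducible windows had a mean AT content of 55.3% (SD 4.90, 52 windows) in the left cluster and 54.1% (SD 8.13, 44 windows) in the right, against 65.0% and 68.4% for the other relaxed windows. In the rest of chromosome IV reproducible windows averaged 54.2% (SD 7.70, 266 windows) and the others 64.2%, so low AT content at the strongest summits was not a feature of the clusters alone. Within bands of equal AT content the distance gap was narrower. Of the 55 reproducible summits with 50 to 60% AT, 2 (3.64%) lay within 100 bp of a piRNA start, against 6.73% of other relaxed summits and 6.59% of bases in that band, and 20.0% lay within 250 bp, against 26.6% and 24.9%. Of the 18 with 60 to 70% AT, 1 (5.56%) lay within 100 bp, against 20.5% and 22.8%, and 27.8% lay within 250 bp, against 44.8% and 44.5%. Only 2 reproducible windows reached 70% AT, a band that holds 680 of the 1513 other relaxed summits and has 46.9% of its bases within 100 bp of a start. The part of AT content in the distance result was not tested further.

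The sequence element of piRNA genes was also rare under the reproducible peaks. CTGTTTCA lay within the 101-bp window of 1 of 52 reproducible summits in the left cluster (1.92%) and of 0 of 44 in the right, which allows up to 6.82%. Among the other relaxed summits it lay in 3.32% of left and 8.90% of right windows, and among all windows of that length in 4.98% and 8.97%. In the rest of chromosome IV, where piRNA genes are few, it was found in 0 of 266 reproducible windows, which allows up to 1.13%, in 0.769% of other relaxed windows and in 0.76% of all windows. The shorter core GTTTCA, which CTGTTTCA contains, gave the same order, with 2 of 96 reproducible windows (2.08%), 19.9% of other relaxed windows and 22.1% of all cluster windows, and it did so in the rest of the chromosome too, with 4.51%, 9.36% and 10.3%. The 1 reproducible window with CTGTTTCA, at 5591356 in an intron of fkh-7 and printed above, lay 333 bp from the nearest piRNA start, so its element is not the one that stands before that gene's start.

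The site described for SEM-4, TTGTCT or TTGTGT, ran the other way. It lay in 11 of 52 reproducible windows of the left cluster (21.2%) and 10 of 44 of the right (22.7%), against 14.3% and 11.7% of the other relaxed windows and 13.0% and 11.6% of all windows. Reproducible windows in the rest of chromosome IV held it in 22.9% of cases, against 12.4% of all windows there. Clusters and the rest of the chromosome thus had close shares. Within the clusters, 16 of the 56 reproducible windows outside promoter windows held the site and 5 of the 40 inside them did. Those inside were 4 of 23 in the left and 1 of 17 in the right cluster. The site was in 12.1% of all cluster windows, so reproducible windows at promoters hardly differed from these. All of these counts are small. A match is a description of letters and not a bound site.

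Protein-coding promoters took up a larger part of the reproducible summits than of the cluster bases. In the left cluster 23 of 52 (44.2%) lay in a promoter window, against 29.0% of other relaxed summits and 26.3% of bases, and in the right cluster 17 of 44 (38.6%), against 22.6% and 17.9%. In the rest of chromosome IV the shares were 57.9%, 33.3% and 28.3%. The remaining 56 reproducible cluster summits fell into a different setting. Those in promoter windows had a median of 0 piRNA genes within 2 kb and lay at a median of 4668.5 bp from the nearest piRNA start, while those outside had a median of 9.5 piRNA genes within 2 kb and lay at 396 bp. Cluster bases also differed, at a median of 495 bp in promoter windows and 213 bp outside, and had a median of 8 piRNA genes within 2 kb over all of them. By annotation class, 62 of the 96 summits were intergenic, 21 were in introns and 8 in exons of other non-coding genes, with 1 in a coding exon, 1 in a 5′ UTR, 2 in 3′ UTRs and 1 in a piRNA gene. Coding exons make up 17.0% of cluster bases.

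The strongest cluster peak of all stood at 4750077 in the left cluster and ranked 8 of the 30000. Its signal, the authors' own value per peak, was 522 after pooling, with 362 in replicate 1 and 158 in replicate 2. It lies 163 bp upstream of Y17G9B.5 and 299 bp upstream of rpl-20, which encodes a protein of the large ribosomal subunit, and 17647 bp from the nearest piRNA start. Signals are scaled within each list, so the lower value of replicate 2 is not a weaker peak by itself.

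Most of the other strong left-cluster peaks lay upstream of protein-coding genes. The peak at 6336905, 748 bp upstream of ipla-6 and 911 bp upstream of mif-4, had a pooled signal of 214 (137 in replicate 1, 76.2 in replicate 2). W03F8.4 had a peak 250 bp upstream with 139 (99.1 and 49.9). A summit at 4660498 lay 297 bp upstream of F29B9.11, 493 bp upstream of the histone demethylase gene jmjd-1.2 and 981 bp upstream of mrps-21, a mitochondrial ribosomal protein gene, with 137 (88.2 and 46.7). Each of these was found in both replicates. The dynein intermediate chain gene dyci-1 had a summit 812 bp upstream (108), the RNA-binding protein gene sqd-1 one 358 bp upstream (102), Y73B6BL.29 one 39 bp upstream (87.5) and C17H12.2 with the proton pump subunit gene vha-8 one 134 and 452 bp upstream (84.3).

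The remaining peaks of the left-cluster top 12 lay in or near 4 further genes. A summit in an intron of fkh-7, a forkhead transcription factor gene, 907 bp upstream of another of its starts, had a signal of 133 (97.8 in replicate 1 and 34.5 in replicate 2) and lay 242 bp from a piRNA start. The intron of nhr-46, a nuclear hormone receptor gene, held the strongest left-cluster peak outside promoter windows, with 119 (63.9 and 54.9), 358 bp from a piRNA start. The intron of lag-1, which encodes the DNA-binding effector of Notch signalling, had 112 (75.1 and 38.7), and a non-coding exon in the locus of skn-1, the Nrf-family stress regulator, had 84.4 (50.5 and 31.7). The nhr-46 and lag-1 windows both hold TTGTCT or TTGTGT, while the fkh-7 and skn-1 ones do not.

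In the right cluster the strongest peaks were lower. The summit at 15471624, 129 bp upstream of ntl-11, a subunit gene of the CCR4-NOT deadenylase complex, ranked 117 with a pooled signal of 155 (82.1 in replicate 1 and 73.1 in replicate 2). The summit 245 bp upstream of dld-1, the dihydrolipoamide dehydrogenase gene, had 154 (91.0 and 62.8), and a summit less than 1 kb from the ntl-11 one, 221 bp upstream of Y73F8A.27, had 119 (66.6 and 51.9). Further promoter peaks were those of Y105C5A.1272 and Y105C5A.1268 (94.7), of tsr-2 and set-26 (90.1), the second encoding a SET-domain protein, and of mrps-7 and Y57G11C.3 (73.4). These lie 1197, 1637 and 3433 bp from the nearest piRNA start.

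The other members of the right-cluster top 12 lay away from promoters, with either 9 to 32 piRNA genes within 2 kb or none. All bases of the right cluster had a median of 13 piRNA genes within 2 kb, and the other relaxed summits 15. The intron of Y57G11C.22 held a peak of only 99 bp with a signal of 112 (64.5 and 58.7), with 10 piRNA genes within 2 kb and the nearest start at 332 bp. The summit at 15571035 had 70.4 (36.5 and 43.1) with 32 piRNA genes within 2 kb and the nearest start at 200 bp, and an intron of Y105C5A.15 had 69.4 (55.6 and 21.4) with 13 piRNA genes and a start at 194 bp. At 14034382 a peak of 83.6 (56.4 and 29.1) had 9 piRNA genes around it. Against these, the summit at 16498202, with 105 (66.0 and 34.0), and that at 16492520, with 97.4 (45.9 and 53.6), had no piRNA gene within 2 kb. They lie 7480 bp downstream of the start of the bZIP gene zip-7 and 3499 bp upstream of rho-1, the RhoA GTPase gene.

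That last stretch held the run with the most reproducible summits in the clusters. Summits less than 10000 bp apart were joined, and runs of 3 or more are reported. Between rho-1 and zip-7, 5 summits spanned 10294 bp with signals from 40.6 to 105, none in a promoter window and the nearest piRNA start 3620 bp away. The other runs held fewer summits, some over a longer span: 4 summits over 21221 bp near K02B2.6, rps-25 and unc-44, 3 over 11611 bp and 3 over 2917 bp at fkh-7, 3 over 9413 bp at skn-1 and bec-1, 3 over 5409 bp near lip-1 and H20E11.1, and 3 over 5481 bp near T23G4.127 and tlp-1. In 5 of the 7 runs every summit was 110 to 611 bp from a piRNA start. Such nearness is common in the clusters, where 50.5% of left and 73.8% of right bases lay within 600 bp of a start.

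Of all 96 reproducible peaks, 3 came within 100 bp of a piRNA start. The one inside 21ur-13200 at 16181038, whose window is printed above, had a signal of 63.4 (45.7 in replicate 1 and 21.2 in replicate 2), an AT content of 56.4% and 17 piRNA genes within 2 kb. The one at 5364333, 86 bp from the start of 21ur-11261, is also 27 bp upstream of the histone deacetylase gene hda-6 and had 51.2 in the pooled list and 28.6 in replicate 1, with no overlapping relaxed peak in replicate 2. The one at 14390417, 88 bp from 21ur-13707, had 42.6 (26.6 and 16.6). All 3 were well below the strongest peaks of their clusters, and 1 of them was found in replicate 1 alone. The median signal of reproducible peaks was 57.4 in the left and 50.1 in the right cluster. The peak inside 21ur-13200 was above its cluster's median and the other ones were below theirs.

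Other non-coding genes were searched in the same way, but with the distance taken to the gene and not to its start. Summits within 100 bp of one of the 321 cluster genes annotated as ncRNA made up 14 of 96 reproducible summits (14.6%) and 4.3% of the others, against 1.89% of bases. The rest of chromosome IV gave 13.9%, 5.42% and 2.04%. For the 41 tRNA genes of the clusters the counts were 1 of 96 and 17 of 1513 (1.12%), against 0.18% of bases. snRNA, snoRNA and miRNA genes had 0 of 96 reproducible summits, which allows up to 3.12%, and 5, 4 and 0 of the 1513 others. That limit lies far above the share of bases near these genes, so no difference from the bases could be seen at this number of peaks. In the rest of chromosome IV, 9 of 266 reproducible summits (3.38%) were near snoRNA genes, against 0.117% of bases. There, snRNA genes had 2 and miRNA genes 0.

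The replicates found nearly the same reproducible cluster peaks but ranked them differently. Of the 96, all overlapped a relaxed peak of replicate 1 by at least 1 bp and 95 one of replicate 2, and with 50% reciprocal overlap 89 (92.7%) were in both. That share partly follows from how the reproducible list was made. Of the 1513 other members, 570 (37.7%) were in both replicates, against 45.5% of the other peaks in the rest of chromosome IV, and the share over all relaxed members was 35.5% in the right cluster and 48.1% in the left. Among the 96, 55 (57.3%) ranked within the 2490 strongest of both replicates. Signals ran from 9.47 to 362 (median 34.9) in replicate 1 and from 4.74 to 158 (median 22.7) in replicate 2, and over the 95 peaks found in both Spearman's rho was 0.350. The number of reads behind each peak is unknown, because the lists hold no counts.

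**Figure D5:**
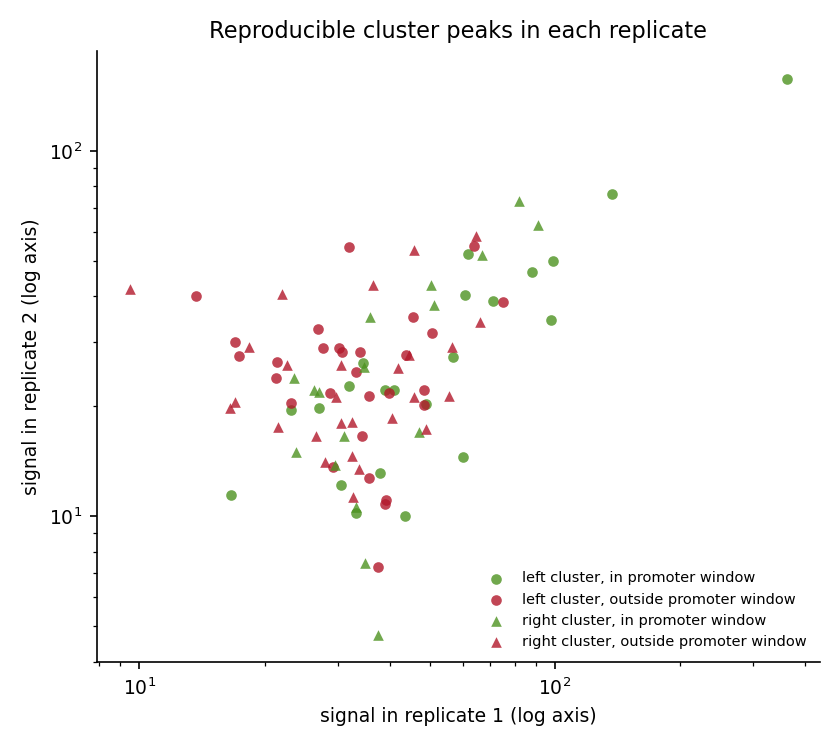
Signal of the reproducible cluster peaks in replicate 1 and replicate 2 (both log axes, 95 peaks found in both). Circles are the left and triangles the right cluster, green in and red outside promoter windows. The strongest peaks are high in both replicates, and below them the order differs (Spearman's rho 0.350).

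Genes of the piRNA pathway itself had summits about as often as protein-coding genes at large. Of the 24 genes listed, 23 were matched in the annotation and prg-2 was not. Of the 23, 2 (8.7%) had a reproducible and 10 (43.5%) a relaxed summit in a promoter window, against 8.71% and 38.4% of all 19973 protein-coding genes. The reproducible ones were snpc-4, a subunit of the complex at piRNA promoters, with 45.2 at 223 bp upstream, and tofu-1, needed for piRNA precursor processing, with 52.8 at 212 bp upstream. snpc-4 ranked 4033 in replicate 1 and 1219 in replicate 2, and tofu-1 ranked 1276 and 4598, so neither was among the 2490 strongest of both. Relaxed summits were listed for tofu-5 (15.5), unc-130 (15.2), attf-6 (15.7), tost-1 (26.5), henn-1 (25), hrde-1 (12.8), mut-16 (29.3) and mut-2 (27.4). The others, prde-1 and prg-1 among them, had no relaxed summit in their promoter windows.

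At the bounds of the clusters no reproducible peak stood near the line. The nearest summits inside lay 2611 and 8175 bp from the left cluster's ends, with signals of 13.2 and 14.6, and 2966 and 3356 bp from the right cluster's ends, with 8.40 and 8.77. Just outside they lay at 3826, 11944, 6086 and 3616 bp with 8.67, 30.5, 9.18 and 8.74. For comparison, the strongest peaks in the rest of chromosome IV were at rpl-15 with K11H12.8 (554), rpl-12 with lin-54 (219), eelo-2 (201), hsp-1 (187) and pdtf-1 with T26A8.4 (159), all in promoter windows. The eelo-2 peak lies right of the right cluster, 661 bp from a piRNA start. In the clusters 3 ribosomal protein genes, rpl-18, rpl-20 and rpl-29, had a reproducible summit in their promoter window among 57 genes that did, against 10 among 200 in the rest of the chromosome.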

How the data were processed

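The authors deposited narrowPeak lists on ce11. As their text file lists state, each replicate and the pooled alignments gave a relaxed list against a control, and the irreproducible discovery rate (IDR) step gave the reproducible list. In the deposited lists column 7 is a signal and column 9 the −log10 of a q-value (largest 3.7). Only signal was used, within a list. Aligner, caller and IDR threshold are not given in the sources used here, and read depth is unknown. The control and the ce10 lists were not analysed here.

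Summits are 1-based. Gene models came from Ensembl release 115 and sequence from RefSeq (both WBcel235). Where annotations overlapped, a summit went to coding exons first, then UTRs, piRNA genes, other non-coding exons and introns. Replicate values come from the replicate peak that overlaps and has the closest summit. Python 3.11.15, numpy 2.4.6 and pandas 2.3.3 were used, and the distance and overlap steps were tested on simulated data.

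The text names the 12 strongest reproducible peaks of each cluster, those inside piRNA genes, those at the bounds, the 5 strongest in the rest of chromosome IV and a piRNA pathway list. The peaks within 100 bp of a piRNA start, the runs and the other non-coding genes were added after values were seen. Members, lists and thresholds were chosen with earlier results of these data known, so no test was made, and values are described beside those of all bases and of the rest of the chromosome. Alternatives covered thresholds, windows, bounds, overlaps and each replicate alone. Those on distances of reproducible summits were added after the data were seen.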

Additional observations from a re-analysis of the deposited data

How the results depend on the processing

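Of 57 recomputed values, 38 stayed within the counting interval or spread of the main value and 19 moved. The differences and ratios among them kept their direction. The share of cluster peaks in the reproducible list minus that of the rest of chromosome IV was -2.20 percentage points. With 1 replicate left out it ran from -2.80 to -0.637, the small value being that without replicate 1. The ratio of median signals, clusters over rest, was 0.935, and became 0.923 for peaks found in both replicates and 0.897 against the central stretch. The share of cluster summits within 250 bp of a piRNA start (50.2%) was 28.2% within 100 bp and 63.5% within 500 bp. Cluster bases gave close shares of 50.1%, 29.8% and 61.9% at 250, 100 and 500 bp. Within 250 bp, the summit share was 44.2 to 52.3% with 1 replicate left out. It was 18.8% for reproducible summits and 18.6% for those among the 1245 strongest peaks. CTGTTTCA lay in 6.03% of cluster windows, in 3.29% with 25 bp and 12.1% with 100 bp on each side, in 1.04% of reproducible windows and in 0% of the 43 among the 1245 strongest (which allows up to 6.98%), and GTTTCA in 18.8%. TTGTCT or TTGTGT lay in 13.4%, in 6.90% with 25 bp and 25.5% with 100 bp on each side, in 21.9% of reproducible windows and in 18.6% of those among the 1245 strongest. The changes with window and distance follow from the length searched. Reproducible cluster peaks found in both replicates were 99.0%, or 92.7% with 50% reciprocal overlap and 100% among the 1245 strongest. Widening or narrowing the bounds by 250 kb kept the density ratio of reproducible peaks, clusters over rest, between 0.597 and 0.70 around 0.657. No paired analysis was possible because there is 1 group.

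The lists give no read counts, so no counting error can be attached to a peak, and the shares carry counting error of peaks, which can neighbour each other. Only 96 members were reproducible, so a share of 0 over all of them still allows up to 3.12%. Each such limit takes 3 counts as the most that 0 allows. Annotated piRNA genes are dense, AT content moves with both signal and piRNA density, and the control library was not analysed here.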
